A study of Mus musculus with 26 samples.

Results

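The genes described are 10 transcripts of late spermatids and sperm, *Prm1*, *Prm2*, *Prm3*, *Tnp1*, *Tnp2*, *Smcp*, *Odf1*, *Akap4*, *Fabp9* and *Oaz3*. They were taken by symbol from the gene counts of RNA-seq of mouse epididymis and testis, and all 10 are among the 23337 genes counted. RNA came from the first stretches of the epididymis, named initial segment (IS) and caput, in 5 samples of each genotype per segment, and from the testis in 3 samples of each genotype. The mutant mice are the knock-in line labelled ArKI, and the controls are labelled WT. All 26 samples came from mice 3 months old of the strain C57Bl/6N; 129 hybrid. The knock-in is in the germ line and so is present in every cell of both organs. The IS and caput were taken from 5 mice of each genotype and the testes from 3, as many mice as samples in a group, but the sources used here do not say which IS and caput samples share a mouse.

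In spermatids, transcription of the haploid genome comes to an end as the nucleus condenses, and many transcripts are stored for later translation. Transition proteins replace the histones and are in turn replaced by protamines, which pack the sperm DNA, while other stored transcripts serve the building of the tail. Sperm then leave the testis through the efferent ducts, pass the initial segment and the caput, and carry with them some of the RNA made in the testis. The comparison asked whether these transcripts differed between ArKI and WT epididymides, and whether the difference was also present in the testis, where the genes are transcribed.

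Of the 10 transcripts 9 were called lower in the ArKI caput, and none was called in the ArKI testis. *Prm3* had too few counts in the caput for the filter and was called lower there only in a fit without it. In that fit all 10 were called lower, where 3.19% of genes were. Of the 9 that passed all 9 were lower in ArKI, from 2.15-fold for *Odf1* to 12.4-fold for *Akap4*, where 2.55% of all genes tested were called lower and 2.43% higher. In the testis 0 of 10 were called by edgeR, where 0.0821% of genes were called lower and 0.751% higher, and their log2 fold changes lay between 0.0091 and 0.18, with 1 of the 10 at an unadjusted p under 0.05. The falls were not of 1 size: *Prm1*, *Prm2*, *Tnp1*, *Tnp2*, *Akap4* and *Fabp9* fell by 3.04 to 3.63 on the log2 scale, *Oaz3* fell by 1.85, and *Smcp* and *Odf1* fell by 1.16 and 1.10. In the IS, where the counts were lower, 2 passed the filter and both were called lower. Without a filter 7 of the 10 were called, where 1.45% of genes were, with fitted values from -2.46 to -5.62. That unfiltered count ran from 1 to 9 when any sample was left out. A difference in the size of the fall between IS and caput did not pass its test for any of the 9 transcripts tested (edgeR adjusted p from 0.13 to 0.75).

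Genes of the chromatin group lie close together. *Tnp2*, *Prm3*, *Prm2* and *Prm1* follow one another on the minus strand of chromosome 16 (mm10, 10787936 to 10805839), between *Socs1* and *Rmi2*, while *Tnp1* is on chromosome 1 (73015074 to 73015909, minus strand). *Smcp* (92583867 to 92588997), *Fabp9* (10193621 to 10197283) and *Oaz3* (94432414 to 94443915) are on the minus strand of chromosome 3, *Odf1* is on the plus strand of chromosome 15 (38219203 to 38226735) and *Akap4* on the plus strand of the X chromosome (7067519 to 7078609). In the annotation *Prm1* and *Tnp1* overlap antisense genes, *Oaz3* overlaps *Tdrkh* and *Mrpl9* on the opposite strand, and *Fabp9* overlaps the gene model Gm37389 on the same strand. Whether the counting used strand is not given in the sources used here, so the values of *Prm1*, *Tnp1* and *Oaz3* may hold reads of their partners. Reads of *Fabp9* and Gm37389 could not be told apart by strand in any case.

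The RefSeq table of promoters (GRCm38.p6) held 7 of the 10 genes and not *Odf1*, *Fabp9* and *Oaz3*. The windows below run from 250 bases before the annotated start of transcription to 50 after it and are printed 5′ to 3′ on the gene's strand. They are shown for a protamine pair that is adjacent on the chromosome, for a transition protein gene and for *Smcp*, whose transcript fell least of the 7. Capitals mark 2 patterns, searched on both strands: TGANNTCA, which takes in variants of the cAMP response element read by the spermatid activator CREM, and TATANA, the core of a promoter element found shortly before many starts.
Prm1, chr16:10796774-10797073, minus strand: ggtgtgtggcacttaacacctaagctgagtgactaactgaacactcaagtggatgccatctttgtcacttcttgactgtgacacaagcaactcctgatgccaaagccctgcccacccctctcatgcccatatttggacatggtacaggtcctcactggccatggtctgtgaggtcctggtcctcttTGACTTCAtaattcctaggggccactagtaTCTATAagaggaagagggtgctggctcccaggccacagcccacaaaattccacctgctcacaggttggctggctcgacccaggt
Prm2, chr16:10792056-10792355, minus strand: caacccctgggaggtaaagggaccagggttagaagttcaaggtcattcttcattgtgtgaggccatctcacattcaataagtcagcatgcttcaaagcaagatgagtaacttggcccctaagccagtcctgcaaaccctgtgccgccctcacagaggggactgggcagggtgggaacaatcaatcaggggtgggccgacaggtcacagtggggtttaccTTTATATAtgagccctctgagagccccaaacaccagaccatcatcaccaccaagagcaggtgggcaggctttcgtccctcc
Tnp1, chr1:73015850-73016149, minus strand: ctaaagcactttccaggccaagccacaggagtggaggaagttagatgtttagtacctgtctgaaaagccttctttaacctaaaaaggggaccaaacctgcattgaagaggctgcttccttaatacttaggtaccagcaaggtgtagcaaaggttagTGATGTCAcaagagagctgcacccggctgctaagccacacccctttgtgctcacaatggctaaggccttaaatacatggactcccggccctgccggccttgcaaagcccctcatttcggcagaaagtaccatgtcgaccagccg
Smcp, chr3:92589024-92589323, minus strand: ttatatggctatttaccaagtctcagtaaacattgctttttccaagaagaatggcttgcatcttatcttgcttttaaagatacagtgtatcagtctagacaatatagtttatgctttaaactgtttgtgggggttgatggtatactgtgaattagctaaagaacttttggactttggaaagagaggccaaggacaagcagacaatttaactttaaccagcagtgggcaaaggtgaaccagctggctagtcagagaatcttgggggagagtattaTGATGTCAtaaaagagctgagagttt
The match to TGANNTCA began at position -64 from the start in *Prm1*, at -94 in *Tnp1* and at 25 in *Smcp*, counted from the RefSeq start. The gene coordinates given further up are those of GENCODE, in which *Smcp* starts at 92588997, downstream of the whole window, and other starts differ too. The 7 genes have 8 windows in the table. Of these 6, from 5 genes (*Akap4*, *Prm1*, *Prm3*, *Smcp* and *Tnp1*), had such a match, against 14.1% of the 32851 promoter windows of the table. TATANA was found in 4 of the 8, against 24.7% of all windows. The patterns were chosen after the sequences had been read, and a match is a string of letters and not a measured site.

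In the WT testis these transcripts were among the most abundant of all. By level per exon length (RPKM, CPM per kilobase of exon), *Prm2* ranked 1 of 20703 genes, at 10527 ± 1214 (SD, n = 3), and *Prm1* ranked 2, at 5707 ± 764. *Tnp2* and *Tnp1* followed at ranks 3 and 4, *Smcp* and *Oaz3* at 6 and 7, *Fabp9* at 12, *Odf1* at 15 and *Akap4* at 33. *Prm3*, whose product is not a DNA-packing protamine, was the lowest of the 10 at rank 107, with 432 ± 63.2 RPKM. The 10 transcripts together took 1.81% to 2.16% of all counts in the WT testis samples and 1.99% to 2.28% in the ArKI testis samples.

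All 10 were far lower in the epididymis. In a fit of the 13 WT samples, all 10 were higher in the testis than in the mean of IS and caput, where 38.1% of the genes tested were higher. The log2 difference ranged from 6.75 (SE 0.20, *Odf1*) to 8.92 (SE 0.11, *Fabp9*), with adjusted p from 1.2e-20 to 9.1e-10 (quasi-likelihood test of edgeR, adjusted by Benjamini-Hochberg). The testis was sequenced in another batch than the epididymis, so tissue and batch cannot be told apart in this comparison. The 10 transcripts took between 0.0242% and 0.0379% of the counts in WT caput samples, and between 0.00114% and 0.00739% in WT IS samples.

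The IS, which sperm reach first, held less of them than the caput in WT mice. All 10 were called lower in the WT IS, where 11.4% of the genes tested were lower. IS and caput samples were fitted as independent, since which of them share a mouse is not given. The log2 difference ranged from -1.84 (SE 0.54, adjusted p = 0.0058) for *Prm3* to -3.23 (SE 0.28, adjusted p = 1.3e-06) for *Odf1*, both by edgeR with Benjamini-Hochberg adjustment. *Smcp*, at -3.17, was next to *Odf1*. In bulk RNA, fewer sperm in a piece of tissue and less RNA per sperm cannot be told apart, here and in all comparisons that follow.

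**Figure D1:**
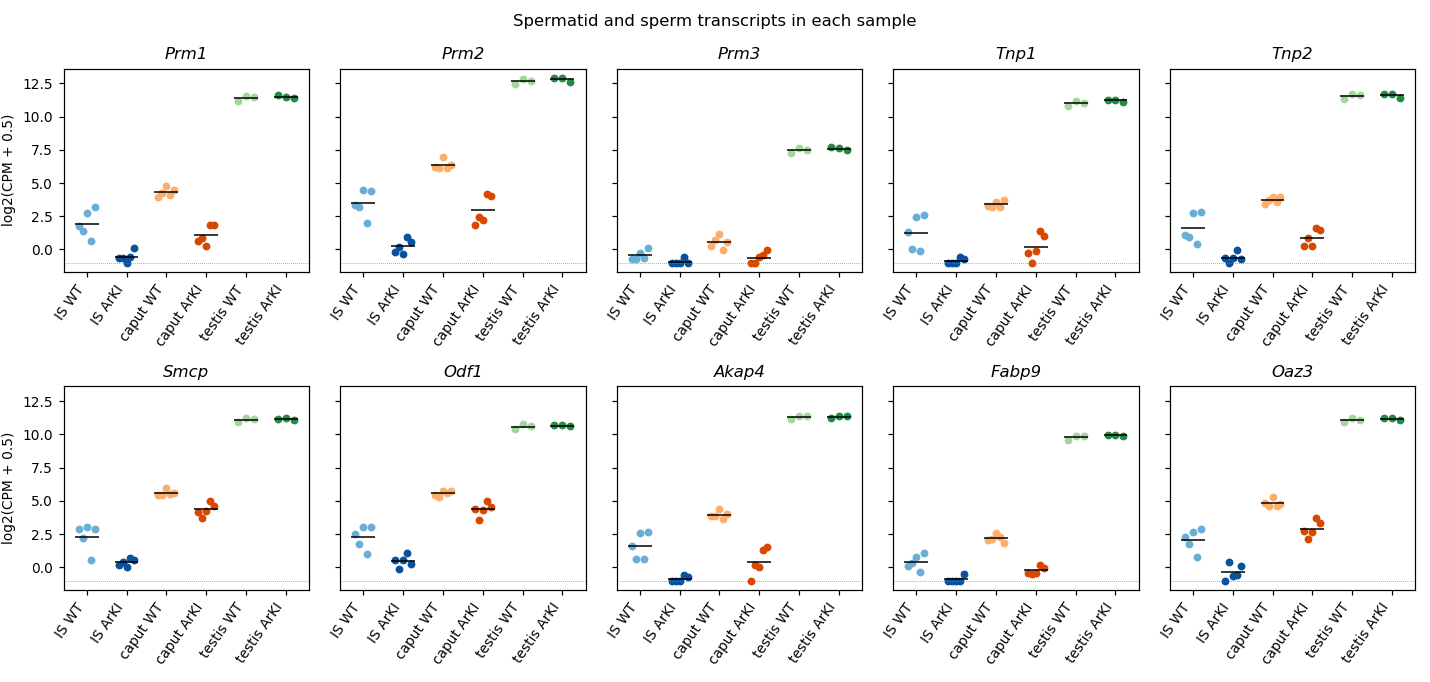
Level of each of the 10 transcripts in every sample, as log2(CPM + 0.5) with CPM scaled over all 26 samples (vertical axis), by tissue and genotype (horizontal axis). Each point is 1 sample, in the order of the replicate numbers, the bar is the group mean, and the dotted line is the value of 0 counts. ArKI caput samples lie below WT caput samples for 9 of the 10 transcripts, while the testis groups overlap for all 10.

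The protamines, which take over the packing of DNA in the sperm head, were the first group examined in the caput. *Prm1* stood at 15.2, 18.2, 27.0, 16.7 and 22.1 CPM in WT replicates 1 to 5 and at 1.03, 1.28, 0.681, 3.13 and 3.09 CPM in ArKI replicates 1 to 5. CPM is the common unit of counts relative to library size, here after scaling by TMM (trimmed mean of M values) over all samples. The groups did not overlap, and ArKI replicates 4 and 5 were the highest of the mutants. The fall was -3.34 on the log2 scale (SE 0.33, adjusted p = 3.8e-05 by edgeR with Benjamini-Hochberg adjustment), or 10.1-fold.

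*Prm2*, the most abundant of the 10 in both organs of WT mice, stood at 72.8, 69.4, 126.1, 70.9 and 80.5 CPM in the WT caput and at 3.09, 4.91, 4.25, 17.7 and 15.8 CPM in the ArKI caput. The lowest WT sample was above every ArKI sample, and WT replicate 3 stood apart from the other WT samples. In the ArKI caput *Odf1* and *Smcp*, at 21.3 and 21.1 CPM on average, were above *Prm2* at 9.15. The log2 fold change was -3.09 (SE 0.44, edgeR adjusted p = 0.0010). *Prm3* had 4 to 16 counts in the WT caput samples and 0 to 6 in the ArKI samples, so its groups overlapped and it did not pass the filter. Without a filter its log2 fold change was -2.16 (SE 0.54, edgeR adjusted p = 0.0037).

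The transition proteins, which hold the chromatin between histones and protamines, were examined next. *Tnp1* had 96, 83, 106, 76 and 114 counts in the WT caput and 3, 0, 5, 26 and 19 counts in the ArKI caput. The log2 fold change was -3.30 (SE 0.40, edgeR adjusted p = 9.5e-05). *Tnp2* ranged from 10.3 to 15.3 CPM in WT and from 0.681 to 2.55 CPM in ArKI, with no overlap. Its log2 fold change was -3.04 (SE 0.28, edgeR adjusted p = 3.3e-06).

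The transcripts of the sperm tail fell to different extents. *Akap4* encodes the main anchoring protein of the fibrous sheath, the scaffold of the principal piece of the tail. It stood at 14.4, 14.4, 21.1, 12.0 and 15.7 CPM in the WT caput and at 0, 0.641, 0.510, 1.98 and 2.46 CPM in the ArKI caput. No count was found in ArKI replicate 1, and the log2 fold change of -3.63 (SE 0.44, edgeR adjusted p = 0.00022) was the largest fall of the 10. *Odf1*, a protein of the outer dense fibres that stiffen the tail, stood at 44.2, 38.3, 54.1, 46.9 and 52.4 CPM in WT and at 21.0, 11.1, 19.1, 32.0 and 23.1 CPM in ArKI.

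The *Odf1* groups did not overlap, but the gap between the lowest WT sample and ArKI replicate 4 was small. The log2 fold change was -1.10 (SE 0.21, edgeR adjusted p = 0.0032). Without ArKI replicate 1, 2, 3 or 5 it was no longer called: the change came to -0.99, below the 2-fold limit, without replicate 2, and the adjusted p lay just above the limit without each of the others. *Smcp*, a cysteine-rich protein of the capsule around the sperm mitochondria, stood at 42.1, 43.5, 63.0, 45.1 and 49.2 CPM in WT and at 17.5, 12.8, 18.9, 31.9 and 24.4 CPM in ArKI. These groups were separate too, with a log2 fold change of -1.16 (SE 0.21, edgeR adjusted p = 0.0030), and the call was lost without ArKI replicate 3 (adjusted p = 0.0105).

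*Fabp9* and *Oaz3* complete the 10. *Fabp9*, a fatty acid binding protein of the perforatorium under the acrosome, ranged from 2.99 to 5.51 CPM in the WT caput and from 0.214 to 0.659 CPM in the ArKI caput. Its log2 fold change was -3.35 (SE 0.30, edgeR adjusted p = 3.0e-07). *Oaz3*, the antizyme made in haploid germ cells that restrains polyamine synthesis, stood at 28.8, 24.4, 39.0, 24.0 and 27.3 CPM in WT and at 6.07, 3.85, 5.87, 12.4 and 9.67 CPM in ArKI. Its fall of -1.85 (SE 0.26, edgeR adjusted p = 0.00052) lay between the fall of *Smcp* and those of the chromatin group.

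Counted together, 9 of the 9 transcripts tested were called lower in the ArKI caput, where 2.55% of all genes tested were called lower and 2.43% higher. *Fabp9* had at most 8 counts in an ArKI sample and passed the filter through the WT samples alone. *Tnp1* and *Akap4*, with ArKI medians of 5 and 6 counts, also passed through the WT samples. The filter thus favoured transcripts lower in ArKI. Every ArKI sample was below every WT sample for all 9, and this held for 10.4% of the genes tested. The median log2 fold change of the 9 was -3.09, against 0.0017 over all genes tested. Without a filter all 10 were called, where 3.19% of the genes were. ArKI replicates 4 and 5 had the highest CPM of the ArKI caput for each of the 10, and no single library decided the count, which stayed between 7 and 9 when any sample was left out.

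**Figure D2:**
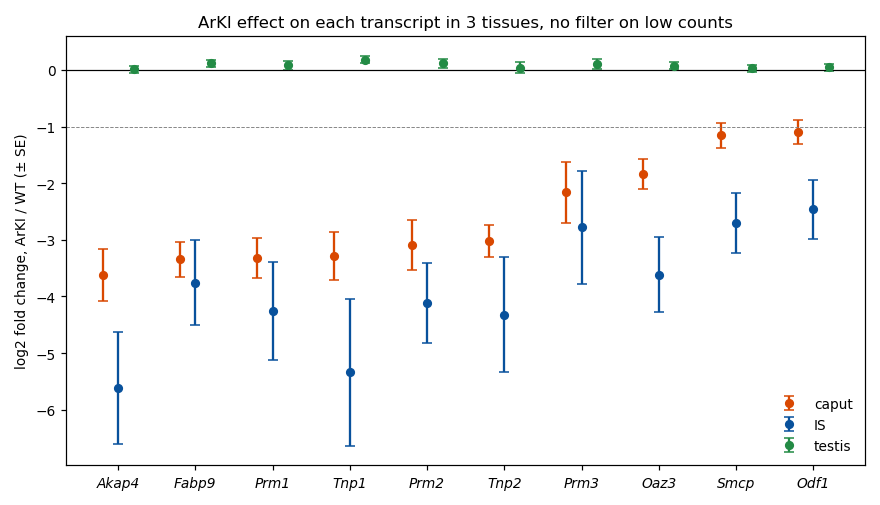
Log2 fold change of ArKI over WT with its standard error (vertical axis) for each transcript (horizontal axis, ordered by the caput value) in caput, IS and testis, from fits without a filter on low counts. The dashed line is a 2-fold fall. In the caput the values run from -3.62 (*Akap4*) to -1.10 (*Odf1*), the IS values lie below them with wider errors, and the testis values lie near 0.

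In the IS the transcripts were few in both genotypes, and fewer in ArKI. The 10 together gave 81 to 722 counts in the WT samples, with a median of 311, and 15 to 39 counts in the ArKI samples, with a median of 21. *Prm2* had 84, 81, 186, 26 and 208 counts in WT replicates 1 to 5 and 3, 5, 2, 9 and 9 in ArKI. The groups were separate, although WT replicate 4 held less than the other WT samples, as it did for most of the 10. *Prm1* had 25, 20, 53, 8 and 87 counts in WT and 1, 1, 0, 1 and 5 in ArKI.

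*Akap4* was at or near 0 in the ArKI IS. It had 22, 10, 48, 8 and 60 counts in WT and 0, 0, 0, 1 and 1 in ArKI. The summed ArKI level was 1.60% of that of WT, with a counting interval of 0.192% to 5.88% (exact, 95%, counting error only). For *Tnp1*, with 3 to 57 counts in WT and 2 counts over all ArKI samples, this ratio was 1.92% (0.230% to 7.10%), and for *Fabp9*, also with 2 counts in ArKI, 5.92% (0.693% to 22.8%).

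*Odf1* and *Smcp* had the smallest falls among those called in the IS without a filter. *Odf1* had 46, 26, 64, 11 and 77 counts in the WT IS and 8, 3, 7, 10 and 6 in the ArKI IS, a summed ratio of 18.0% (12.1% to 25.8%). *Smcp* had 59, 37, 67, 7 and 71 counts in WT and 5, 6, 4, 7 and 9 in ArKI, a ratio of 15.2% (10.1% to 22.2%). The groups of both overlapped through WT replicate 4. *Oaz3* had 9 to 72 counts in WT and 0 to 6 in ArKI, without overlap.

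Only *Prm2* and *Odf1* passed the filter on low counts in the IS. Both were called lower, where 1.32% of the genes tested were lower and 2.72% higher. They had at most 9 and 10 counts in an ArKI sample and passed the filter through the WT samples, so the filter favoured genes lower in ArKI. The log2 fold changes were -4.11 (SE 0.69, adjusted p = 0.0021) and -2.46 (SE 0.49, adjusted p = 0.0026) by edgeR with Benjamini-Hochberg adjustment. Without a filter 7 of 10 were called, where 1.45% of the genes were. *Tnp1*, *Tnp2* and *Prm3* were not, with adjusted p of 0.017, 0.014 and 0.042. In 7 of 10 every ArKI sample was below every WT sample (all but *Prm3*, *Smcp* and *Odf1*), which held for 8.08% of genes. These counts rested on single libraries: without a filter 9 were called when WT replicate 4 was left out, 3, 2, 1, 4 and 3 when ArKI replicates 1 to 5 were left out in turn. With the filter, 6 were called without WT replicate 4 and 4 without ArKI replicate 1, 2, 4 or 5.

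Whether the fall was larger in the IS than in the caput was tested by the interaction of segment and genotype. Here too IS and caput samples were fitted as independent, although they come from the same mice. The differences, IS minus caput, were all negative, from -0.44 (SE 0.71, *Fabp9*) to -2.07 (SE 1.68, *Tnp1*). By edgeR 0 of the 9 transcripts tested were called, and also 0 by DESeq2 and limma, where 3.95% of genes were called in this direction, and 2 of the 9 (*Smcp* and *Odf1*) had an unadjusted p under 0.05. For *Smcp* the difference was -1.55 (SE 0.65, adjusted p = 0.13), and for *Odf1* -1.37 (SE 0.63, adjusted p = 0.17). The errors leave room for a fall in the IS that is the same as in the caput or several times larger. Across the 10 transcripts the log2 fold changes of caput and IS had a Spearman correlation of 0.806, a description over genes that share their libraries.

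In the testis no difference between ArKI and WT was detected for these transcripts. *Prm1* had 32212, 34215 and 33604 counts in WT and 41787, 49397 and 38415 in ArKI, before scaling for the deeper ArKI libraries. Scaled, it stood at 2270, 2946 and 2814 CPM in WT and at 3109, 2840 and 2670 in ArKI, and the groups overlapped. *Akap4* stood at 2339, 2645 and 2664 CPM in WT and at 2433, 2716 and 2692 in ArKI. The groups overlapped for all 10 transcripts, while every ArKI sample was below every WT sample for 8.5% of the genes tested and above for 9.35%.

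None of the 10 was called in the testis by edgeR, DESeq2 or limma at an adjusted p below 0.2 and a fold above 2, a rule that called 0.0821% of genes lower and 0.751% higher. The log2 fold changes ranged from 0.0091 (SE 0.063) for *Akap4* to 0.18 (SE 0.074, adjusted p = 0.29) for *Tnp1*, the 1 transcript with an unadjusted p under 0.05 (0.025). The median of the 10 was 0.073, against -0.0023 over all genes tested. The direction rested on single libraries: without WT replicate 1, the values of 7 of the 10 were below 0, down to -0.062 for *Tnp2*. In the testis comparison the log2 fold change moved with exon length (Spearman correlation of -0.336 across genes). Genes with up to 1500 exon bases had a median of 0.081, with quartiles from -0.0072 to 0.17. Of the 10 transcripts 9 are in that class, with 410 to 1105 exon bases, while *Akap4* has 2994. The part of length in the testis values was not tested.

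The difference between caput and testis was itself tested. In a fit of both tissues, the ArKI effect in the caput minus that in the testis was lower than 0 for 9 of 10 transcripts at an adjusted p below 0.01, where 5.81% of genes were. The values ran from -1.18 (SE 0.27, adjusted p = 0.0092) for *Odf1* to -3.65 (SE 0.45, adjusted p = 0.00011) for *Akap4*, by edgeR. *Prm3* missed the threshold, at -2.27 (SE 0.57, adjusted p = 0.010). Without a filter 7 were called, as *Smcp* and *Odf1* came to an adjusted p of 0.013 and 0.015. Each genotype contrast lies within 1 sequencing batch.

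The size of the fall was next set beside the level in the testis. The order of the 10 by WT testis CPM was *Prm2*, *Tnp2*, *Prm1*, *Akap4*, *Smcp*, *Oaz3*, *Tnp1*, *Odf1*, *Fabp9* and *Prm3*. *Smcp*, *Oaz3* and *Tnp1* stood between 2083 and 2210 CPM with SDs of 227 to 257 (n = 3), so these neighbours did not differ beyond their spread. Their log2 fold changes in the caput were -1.16, -1.85 and -3.30. The Spearman correlation of the caput log2 fold change with the testis level was -0.20 over the 10 transcripts, and that of the IS log2 fold change -0.479.

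*Smcp* and *Akap4* show such a contrast in full. In the WT testis they had 2210 ± 244 and 2550 ± 183 CPM (SD, n = 3). In the WT caput *Smcp* had 48.6 CPM and *Akap4* 15.5, which is 2.20% and 0.608% of the testis level. In the ArKI caput *Smcp* kept 21.1 CPM, 0.921% of its level in the ArKI testis, while *Akap4* kept 1.12 CPM, or 0.0427%. *Odf1* had the highest share of its testis level in the caput of both genotypes, 3.03% in WT and 1.30% in ArKI. At the other end *Tnp2* had 0.428% in WT, and *Tnp1* had 0.0368% in ArKI.

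**Figure D3:**
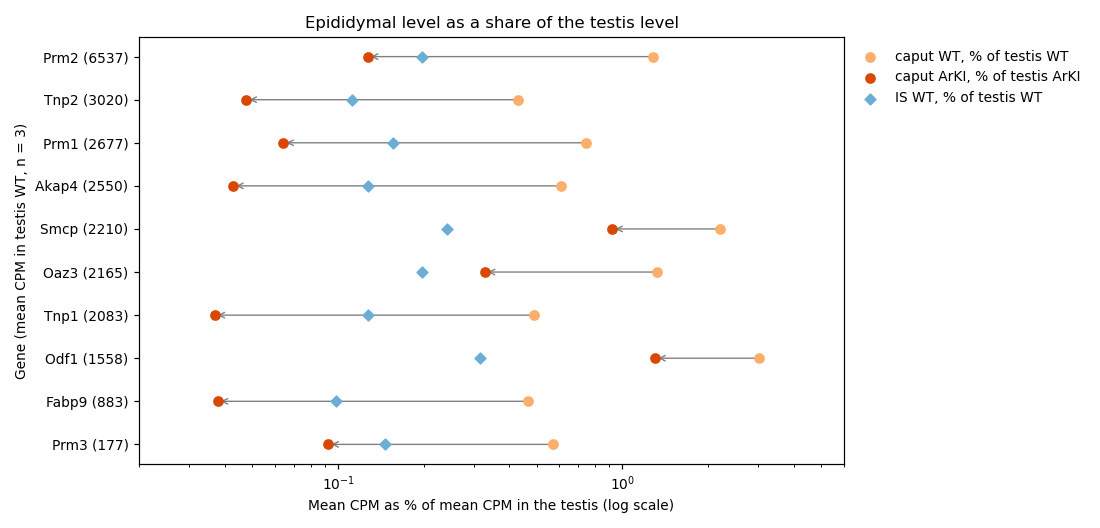
Mean CPM of each transcript in the WT caput, the ArKI caput and the WT IS as a percentage of its mean CPM in the testis of the same genotype (horizontal axis, log scale), with the genes ordered by their WT testis level (vertical axis, CPM in brackets). The arrows lead from WT to ArKI caput. *Odf1* and *Smcp* start highest and have the shortest arrows, at 3.03% to 1.30% and 2.20% to 0.921%.

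The make-up of the 10 transcripts, as shares of their summed counts, differed between organs and genotypes. *Odf1*, *Smcp* and *Oaz3*, a grouping made after their values had been seen, gave 24.9% ± 0.21 (SD, n = 3) of the sum in the WT testis and 24.4% ± 0.69 in the ArKI testis. In the caput they gave 46.0% ± 2.1 (SD, n = 5) in WT and 78.8% ± 8.7 in ArKI, where the samples ran from 68.7% to 89.2%. In the IS they gave 36.1% ± 6.5 in WT and 65.6% ± 12.8 in ArKI. *Prm1*, *Prm2*, *Tnp1* and *Tnp2* went the other way, from 60.0% in the WT testis to 46.4% in the WT caput and 18.9% in the ArKI caput. Within the trio, *Oaz3* stayed close to its testis share of 9.08%, at 10.6% in the WT caput and 11.6% in the ArKI caput, while *Odf1* went from 6.53% to 17.5% and 33.7%.

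**Figure D4:**
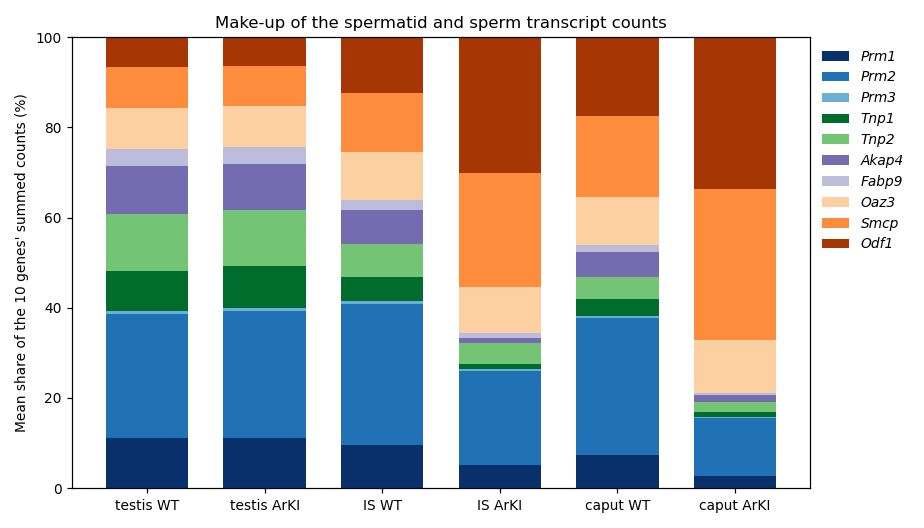
Mean share of each transcript in the summed counts of the 10 (vertical axis, %) for each tissue and genotype (horizontal axis), with bars stacked to 100%. The orange and brown parts, *Oaz3*, *Smcp* and *Odf1*, fill 24.9% of the WT testis bar, 46.0% of the WT caput bar and 78.8% of the ArKI caput bar.

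The 10 moved together from sample to sample. Over the 20 epididymal samples, Pearson's r of a transcript's log2(CPM + 0.5) with the mean of the other 9 ranged from 0.881 (*Odf1*) to 0.988 (*Prm2*), a description of samples that differ in segment and genotype. The genes outside the 10 with the highest correlation with their mean were *Pgk2* (0.989), *Crisp2* (0.987), *Gsg1* (0.986), *Atp8b3* (0.985), *Spz1* (0.977) and *Fhl4* (0.975). *Pgk2* is the testis form of a glycolytic kinase whose gene is expressed in male germ cells, and *Crisp2* is a cysteine-rich secretory protein found in the acrosome and tail. The 6 were chosen on samples that include both caput groups, so a lower level in the ArKI caput follows from the choice. Their mean levels there, given as a description, were 1.79 CPM for *Spz1* to 4.23 for *Fhl4*, against 15.2 and 17.1 in the WT caput.

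Other genes of the same structures were read from lists. Counts in the caput are to be read beside the 2.55% of all genes called lower and the 2.43% called higher there. Of 7 spermatid chromatin genes tested in the caput, 3 were called lower: *H1fnt*, the testis linker histone, at -3.39 (SE 0.38), *Tssk6* at -1.40 and *Chd5* at -1.31. *H1fnt* had 20 to 41 counts in WT and 1 to 6 in ArKI and so passed the filter through the WT samples alone. *Hspa2* changed by -0.32 (SE 0.076), short of the 2-fold limit. Of 8 tail genes tested 4 were called lower, *Gapdhs*, the sperm glycolytic enzyme of the fibrous sheath, at -3.27, *Fscb* at -3.13, *Tcp11* at -2.72 and *Akap3*, a partner of *Akap4* in the sheath, at -1.58. *Odf2*, which is also a centrosome protein of other cells, changed by -0.51 (SE 0.075) and stood at 57.6 CPM in the ArKI caput and 64.8 in the ArKI IS.

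Of 2 genes on the sperm mitochondria list tested in the caput, *Gk2* was called lower, at -3.44. It had 12 to 22 counts in WT and 0 to 2 in ArKI and so passed the filter through the WT samples alone. Without a filter, a reading added after the data were seen, 6 of 9 mitochondria genes, 4 of 9 chromatin genes and 6 of 12 tail genes were called lower in the caput, where 3.19% of genes were. In that reading 2 of 12 acrosome genes (*Spaca1* and *Spam1*) and 3 of 14 meiotic genes (*Piwil1*, *Syce1* and *Sycp2*) were also called lower. It called 0 of 9 polyamine genes, and of 6 fatty acid binding genes it called *Fabp12* lower and *Fabp7* higher. Most acrosome and meiotic genes did not pass the filter. With it edgeR called 0 of 4 acrosome, 0 of 8 polyamine and 0 of 2 meiotic genes tested in the caput. Of each list 1 gene had an unadjusted edgeR p under 0.05. For the polyamine list this was *Adc*, which changed by -0.71 (SE 0.13, adjusted p = 0.00049), under the 2-fold limit. The other antizyme tested, *Oaz2*, was at 0.11 (adjusted p = 0.40), and *Odc1*, the enzyme antizymes act on, at 0.012. In the IS, where 1.32% of all genes were called lower and 2.72% higher, 1 of 3 acrosome genes was called lower, *Dkkl1* at -1.40, which had 42.7 CPM in the WT IS and 2.87 in the WT caput. *Fabp5*, the 1 gene of the fatty acid binding list tested in the IS, was called lower at -2.39 (SE 0.19). Without a filter 1 of 9 chromatin genes (*H1fnt*), 2 of 12 tail genes (*Fscb* and *Gapdhs*) and 0 of 9 mitochondria genes were called lower in the IS. Over all genes this share was 1.45%. With the filter 3, 4 and 1 genes of these 3 lists were tested in the IS and 0 were called lower by edgeR. Of these 0, 2 and 0 had an unadjusted edgeR p under 0.05. The 2 tail genes went opposite ways, *Spa17* at 0.69 (SE 0.16, adjusted p = 0.0029) and *Tcp11* at -1.09 (SE 0.37, adjusted p = 0.040). In the interaction of segment and genotype, IS minus caput, genes of these lists were called in both directions. Of 8 tail genes *Spa17* at 1.30 (SE 0.21) and *Odf2* at 0.48 (SE 0.10) were called higher, as were *Hspa2* (0.42) of 7 chromatin genes and *Adc* (1.11) of 8 polyamine genes, where 4.23% of all genes were. *Dkkl1* (-1.98) of 4 acrosome genes, *Fabp5* (-2.38) of 2 fatty acid binding genes and *Spo11* (-1.59) of 2 meiotic genes were called lower, where 3.95% were. In the testis 0 of 9, 0 of 12 and 0 of 9 genes of these lists were called, with 1 gene of each at an unadjusted p under 0.05.

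Markers of other cells were read beside these falls. All 11 genes of the IS and caput epithelium list were tested in the caput and 0 were called by edgeR, with 2 at an unadjusted p under 0.05. In the IS 1 of the 11 was called lower, *Crisp1* at -2.58 (SE 0.23, edgeR adjusted p = 5.8e-05), where 1.32% of genes were, and 7 had an unadjusted p under 0.05. Among these *Cst8* was at -0.57, *Lcn8* at -0.47 and *Adam7* at 0.48, short of the 2-fold limit. Of the 5 genes of the keratin and *Epcam* list 0 were called by edgeR in either segment, with 4 at an unadjusted p under 0.05 in the caput and 1 in the IS, and log2 fold changes in the caput from -0.29 to 0.32. The summed level of the 11 epithelium genes in the caput of WT samples was 77453 to 96248 CPM, and in ArKI samples 60309 to 96077. The 11 log2 fold changes in the caput ran from -2.01 to 1.33, with wide errors for genes of the IS such as *Cst8* (-2.01, SE 0.96) and *Lcn9* (-1.91, SE 0.90). *Lcn8*, a lipocalin of the IS, ranged from 40.2 to 1087 CPM in WT and from 26.9 to 361.2 in ArKI caput samples, against 8742 to 13522 in the IS. *Lcn5*, a lipocalin of the caput, ranged from 9386 to 16377 CPM in caput samples, against 37.9 to 107.9 in IS samples. The part of these differences in the falls was not tested. The leukocyte list summed to 204.8 to 329.2 CPM in the ArKI caput and to 135.1 to 176.4 in WT, with 1 of 6 genes called higher (*Cd74*, 1.02) and 2 at an unadjusted p under 0.05. *Cd74* alone went from 62.9 to 129.1 CPM on average, while *Itgam* was at -0.057 and *Cd68* at 0.099 on the log2 scale. In the IS 0 of 7 were called by edgeR, with 3 at an unadjusted p under 0.05, *Csf1r* at -0.54, *Itgam* at -0.49 and *Cd74* at 0.92. Ciliated cell genes of the efferent ducts summed to 114.7 to 309.0 CPM in the ArKI IS and to 79.0 to 104.6 in WT, with 2 of 6 called higher (*Tekt1* and *Ccdc39*), where 2.72% of genes were, and all 6 at an unadjusted p under 0.05. In the caput 1 of 4 of these, *Ccdc39*, was called lower, at -1.05, and 3 had an unadjusted p under 0.05. *Rsph1* was at -0.56 there, *Foxj1* at 0.44 and *Esr1* at 0.65. Of the 6, 5 were called higher in the WT testis than in the WT epididymis, where 38.1% of genes were, and 1 lower (*Esr1*). In the WT testis *Rsph1*, *Tekt1* and *Ccdc39* stood at 1176, 457 and 337 CPM, so these genes do not mark ciliated cells alone. The part of leukocytes or ciliated cells in the falls was not tested.

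Lists of testis somatic cells and early germ cells held few genes that were tested in the epididymis. In the caput 2 of 5 Sertoli genes tested were called lower (*Cldn11* at -1.32 and *Aard* at -2.22), where 2.55% of genes were. The other 3 had positive values short of the 2-fold limit, *Sox9* at 0.74, *Wt1* at 0.65 and *Inha* at 0.11, and the median of the 5 was 0.11. Of 3 spermatogonia genes 1 was called higher (*Zbtb16*, 2.04), and 0 of 2 Leydig genes was called by edgeR, with 1 at an unadjusted p under 0.05. In WT, 7 of 8 Sertoli and 4 of 6 spermatogonia genes were called higher in testis than in epididymis, where 38.1% of genes were. *Zbtb16* was at 0.022 in that comparison, *Gfra1* at -5.51 and *Sox9* at -1.69. In the epididymis these 3 genes do not mark testis cells alone. For the meiotic list the sum ran from 23.3 to 32.4 CPM in WT caput samples, against 22.0 to 27.6 in ArKI samples. Of this sum *Stag3* alone gave 21.0 and 18.4 CPM on average, while *Piwil1* stood at 0.488 and 0.0159 CPM and *Sycp2* at 0.998 and 0.0993.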

How the data were processed

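RNA-seq of the IS and caput (sequencing batch 2) and testis (batch 1) was analysed. The authors aligned single-end reads to mm10 with STAR, counted uniquely mapped reads per RefSeq gene with Subread 1.5.1, and deposited raw counts without normalization. Depth was 5829074 to 9770625 counts in the IS, 4125768 (ArKI replicate 2) to 11913469 in the caput and 14077013 to 21376604 in the testis. The altered gene is not reported here, and the genotype labels were not checked.

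Each tissue was fitted by itself in R 4.3.3 with edgeR 4.0.16 (filterByExpr with a minimum count of 10 and total of 15, TMM factors, robust quasi-likelihood fit, Benjamini-Hochberg adjustment over all genes tested). Genes were called at an adjusted p below 0.01 (testis 0.2) and a fold above 2, as in the study's thresholds. Interactions needed an adjusted p below 0.01 only. The study's own test, ROTS, was not run here. Printed levels are TMM-scaled CPM over all 26 samples, with 0.5 added before logs. Exon lengths came from GENCODE M21 transcripts that match RefSeq.

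The 10 genes and all lists were chosen with earlier results of these data known. The named genes were the 10, up to 3 of each list with the highest mean CPM, and the 6 genes most correlated with the 10. Other list genes are named because they were called or close to it, after their values had been seen. Alternatives were DESeq2 1.42.0, limma 3.58.1 with voom, other scalings, filters, thresholds, a replicate block and leaving out each sample. The fits were tested on simulated data. Of 4 patterns searched in the promoter windows, 2 are reported here. Python 3.11.15 with matplotlib 3.10.9 served for the figures.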

Additional observations from a re-analysis of the deposited data

Results flagged for a closer look

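Each of the 10 transcripts and their sum were examined in 4 groups of 5 samples. Among these 44 sets, 5 held a sample that stood apart by Dixon's criterion, where its nominal rate gives about 2.2. That rate is for continuous values and does not hold for sets with tied counts near 0. The sum is also not independent of the transcripts in it. *Prm2* in WT caput replicate 3 had 126.1 CPM, against 69.4 to 80.5 in the others. The rest were in the ArKI IS and rest on 5 counts or fewer. In replicate 5 *Prm1* had 0.555 CPM, against 0 to 0.160 in the others, and *Fabp9* had 0.222, against 0. In replicate 4 *Tnp2* had 0.481 CPM, against 0 to 0.136 in the others, and *Prm3* had 0.160, against 0.

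The ArKI effect differed between caput and testis for 9 transcripts by edgeR's interaction test. The differences of log2 fold changes, caput minus testis, were -3.43 for *Prm1*, -3.25 for *Prm2*, -3.48 for *Tnp1*, -3.08 for *Tnp2*, -1.22 for *Smcp*, -1.18 for *Odf1*, -3.65 for *Akap4*, -3.47 for *Fabp9* and -1.94 for *Oaz3*.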

How the results depend on the processing

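In the caput, 9 of 10 transcripts were called with the filter and 10 without it, and 7 to 9 with any sample left out. A minimum of 10 counts in each sample left 4, since such a filter removes genes that are near 0 in 1 group. It also left 0 in the IS, 2 in the caput and testis interaction, 2 in the WT testis comparison and 2 between WT IS and caput. In the IS, 2 were called with the filter, 7 without it and 9 when all 20 epididymal samples shared 1 fit. That fit also changes the filter, which 9 of the 10 pass in it and 2 in the IS alone, so filter and shared spread were not separated. The IS count was 2 to 6 with any sample left out, and 1 to 9 without a filter, a setting added after seeing the data. No transcript was called in the testis under any setting run. Between WT IS and caput 8 to 10 were called with any sample left out, and in the caput and testis interaction 7 to 9.

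The direction of the testis values was not stable, and none was called. With any testis sample left out, *Prm1* ran from -0.027 to 0.14, *Prm3* from -0.0047 to 0.19, *Tnp2* from -0.062 to 0.12, *Smcp* from -0.058 to 0.084, *Odf1* from -0.041 to 0.12, *Akap4* from -0.047 to 0.049 and *Oaz3* from -0.0048 to 0.13. The lowest value of each came without WT replicate 1. *Tnp2* came to -0.035 without testis ArKI replicate 1, and *Akap4* to -0.0084 and -0.014 without ArKI replicates 2 and 3.

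Over all genes, the strict filter gave 311 calls in the caput, 350 in the IS, 75 in the testis, 744 in the caput and testis interaction, 6821 in the WT testis comparison and 1596 between WT segments. Without a fold limit there were 2468, 2529 and 846 calls in caput, IS and testis, and 9017 between WT segments. At an adjusted p below 0.05 the interactions gave 2170 (IS and caput) and 2433 (caput and testis). The values with the default filter and thresholds were 683, 543, 132, 1369, 11348, 3394 and 1172 for caput, IS, testis, caput and testis interaction, WT testis, WT segments and IS and caput interaction.

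Deviations of samples with the same replicate number correlated from -0.173 to 0.191 between WT and ArKI in the caput, -0.0884 to 0.204 in the IS and -0.0223 to 0.0604 in the testis. IS and caput were taken from the same mice, but which samples share a mouse is not given. Between these segments they ran from -0.00441 to 0.175 in WT, where 3 of 5 samples correlated best with their own number. In ArKI they ran from -0.101 to 0.2, where 2 of 5 did. Not every pair passed 0.1, so the numbers were not taken as pairs. With the number as a replicate block, 8 transcripts were called in the caput (*Prm2* at -3.20, adjusted p = 0.018), 2 in the IS, 0 in the testis and 0 and 9 in the interactions. All 10 were called between WT IS and caput with that block. With IS and caput samples of 1 genotype and number taken as 1 animal, a replicate block added after seeing the data, 0 were called in the IS and caput interaction.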

Other observations

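Other testis transcripts were at low levels in the epididymis, and not all were lower in ArKI. *Gykl1* and *Spata19* of the sperm mitochondria list stood at 1.12 and 1.33 CPM on average in the WT caput and at 0.145 and 0.123 CPM in the ArKI caput (n = 5 each), while their ArKI testis levels were 651 and 442 CPM, against 635 and 392 in WT. *Zpbp2*, a protein of the acrosome, stood at 1.01 CPM in the WT caput and 0.375 in the ArKI caput. *Fabp12* and *Fabp3* stood at 0.392 and 0.429 CPM in the WT caput and at 0.0388 and 0.0564 in the ArKI caput. In the IS *Fabp3* stood at 0.109 CPM in WT and 0.356 in ArKI. These 5 genes were below the filter in the epididymis. Without a filter *Gykl1*, *Spata19* and *Fabp12* were called lower in the caput by edgeR and the other two were not, and in the testis, where all 5 passed the filter, their log2 fold changes ran from -0.21 (*Fabp3*) to 0.15 (*Spata19*) and none was called. In the caput *Dkkl1* stood at 2.87 CPM in WT and 4.46 in ArKI, and *Acrbp* at 9.79 and 10.6, and neither was called by edgeR there.

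*Socs1*, the gene next to *Tnp2* on chromosome 16, was at 0.641 CPM in the WT caput and 1.16 CPM in the ArKI caput, and at 4.12 and 3.83 CPM in the WT and ArKI testis.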
